A study of Mus musculus with 24 samples.

Results

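Transcripts of 45 mouse genes of DNA repair and the Fanconi anemia pathway were taken by symbol from a count table of 55421 genes. All 45 were found, with Mre11 listed as Mre11a. Setd1aFC/FC knockout mice carrying Lgr5-eGFP-CreERT2 (hom) were set against Setd1aFC/+ control mice with the same Cre (het), so both genotypes carried a conditional Setd1a allele, the Cre and the GFP. All 8 mice, 4 of each genotype, received 1 mg tamoxifen into the peritoneum on each of 3 days, and crypt cells of the small intestine were sorted 4 days after induction with EpCAM, CD24 and CD45 antibodies. The sample names divide the cells into stem (sc), transit-amplifying (ta, here TA) and Paneth (pc) fractions, and each mouse gave 1 library of each, which makes 24 libraries in 6 groups of 4. The age of the mice is not given in the labels. Values of single libraries are listed in the order of the animals BN45, BO25, BO57 and BP04 for hom and BN44, BO27, BO58 and BP03 for het.

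The Fanconi anemia pathway, named after an inherited disease of bone marrow failure and cancer risk, repairs DNA strands that are joined by crosslinks, mostly while DNA is replicated. FANCM recognises the blocked fork, and the core complex with its ubiquitin ligase FANCL and the conjugating enzyme UBE2T marks the FANCD2 and FANCI pair with ubiquitin. Nucleases held by SLX4 cut the crosslink, and BRCA1, PALB2, BRCA2 and their partners repair the resulting break by recombination. Broken ends are first held by the MRE11, RAD50 and NBN complex, which activates the kinase ATM, or are rejoined directly by the Ku and DNA-PK machinery. In the crypt, stem and TA cells divide rapidly while Paneth cells are long-lived and do not divide. The Cre used here is driven by Lgr5, a gene of the stem cells at the crypt base, in an allele known to be active in a mosaic of crypts.

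Libraries held between 24726282 and 47052856 counts. Levels are given as CPM, counts divided by the library size after TMM scaling over all 24 libraries, and levels of different genes are compared per kilobase of exon. Summed markers of stem cells ran from 29092 to 43917 CPM in hom and 25446 to 32476 CPM in het stem libraries, against at most 9355 CPM in any other library. The 9 Paneth cell markers summed to 173460 to 930897 CPM in hom and 70658 to 488451 CPM in het Paneth libraries, and to at most 5161 CPM elsewhere. The Paneth libraries were thus uneven on this scale, with hom BN45 highest and het BO58 lowest. The scaled library size was 1.26e+07 in hom Paneth BN45, which held 28094341 counts, and 2.74e+07 in het Paneth BO58, which held 24726282. These sums are therefore not shares of the counts, and their spread includes that of the scaling. The Paneth libraries also held enteroendocrine markers (9 genes, 5357 to 10803 CPM in hom and 5744 to 9750 CPM in het) and tuft markers (7 genes, 1585 to 3048 CPM in hom and 1997 to 2853 CPM in het). Goblet markers (6 genes) summed to 3817 to 17512 CPM in hom and 1198 to 11549 CPM in het Paneth libraries. They summed to 4427 to 11349 CPM in hom and 5109 to 11840 CPM in het TA libraries, but to at most 1095 CPM in any stem library. A value given for Paneth cells therefore belongs to this mixed sorted fraction. Stromal and endothelial markers summed to at most 3.98 CPM in any library. Setd1a, which encodes a histone methyltransferase, stood at 5.19 ± 1.49 CPM in hom and 5.64 ± 1.58 CPM in het stem libraries. It stood at 5.28 ± 0.940 and 4.86 ± 1.42 CPM in hom and het TA libraries, and 6.23 ± 1.05 and 9.73 ± 4.13 CPM in hom and het Paneth libraries (SD, n = 4 each). These counts run over all exons of Setd1a and do not show whether an exon was deleted, so they are no check of the genotypes, and recombination was not measured in any fraction.

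The members spanned a wide range of expression. Per kilobase of exon, Usp1, which encodes the deubiquitinase that strips ubiquitin from FANCD2 and FANCI, had the highest mean over the 24 libraries at 18.7 CPM per kb. Next came Xrcc6, which encodes the KU70 subunit of the Ku end-binding dimer, at 16.4, the checkpoint kinase gene Chek2 at 15.3, Nbn at 13.1, the mismatch recognition gene Msh6 at 12.1 and Xrcc5, the KU80 gene, at 11.4 CPM per kb. At the other end stood Fanca of the core complex at 0.263, Fanci at 0.428, the end-joining polymerase gene Polq at 0.608, Slx4 at 0.614 and the recombination gene Rad51c at 0.632 CPM per kb. The members of the FANCD2 and FANCI step therefore differed widely, with the deubiquitinase gene at the top, Fancd2 at 0.930 and Fanci near the bottom. Within the core complex and its enzymes, the conjugating enzyme gene Ube2t (9.44) and the ligase gene Fancl (7.67) stood above Fancb (4.43), Fancg (1.56), Fance (1.52), Fancf (1.49), Fancc (1.31) and Fanca, all in CPM per kb.

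Summed over the 45 members, levels were 1006 ± 52.6 CPM in hom and 1057 ± 52.5 CPM in het stem libraries. They were 874 ± 71.5 and 971 ± 38.4 CPM in hom and het TA libraries, and 691 ± 176 and 649.9 ± 25.7 CPM in hom and het Paneth libraries (SD, n = 4 each). The mean Paneth sum lay below that of the other fractions in both genotypes, though hom Paneth BP04 lay inside the range of the hom TA libraries. The hom Paneth libraries spread most, with BN45 at 490.0 and BP04 at 917 CPM, while the 4 het Paneth libraries lay between 613 and 670 CPM. These Paneth values depend on the scaling. With library totals in place of TMM, hom Paneth libraries ran from 219 CPM in BN45 to 722 CPM in BP04 and het Paneth libraries from 407 to 736 CPM, all below the 948 to 1022 CPM of hom TA libraries. Each animal is 1 library per fraction, and in such bulk samples fewer cells of a type and less RNA per cell cannot be told apart.

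Between hom and het stem cells, the lowest p among the members belonged to Palb2, whose product joins BRCA1 to BRCA2 at the break. Its level was 3.23, 2.77, 2.58 and 6.54 CPM in the hom stem libraries and 15.5, 13.0, 7.69 and 12.3 CPM in the het stem libraries. All 4 hom libraries lay below all 4 het libraries, with the highest hom value, of BP04, just under the lowest het value, of BO58. These levels rest on 84 to 214 counts in hom and 252 to 887 counts in het libraries. The log2 fold change was -1.70 (SE 0.36), with an unadjusted p of 0.00078 by the edgeR quasi-likelihood test and a Benjamini-Hochberg adjusted p of 0.20 over the 16056 genes tested, which misses the threshold of 0.05. DESeq2 gave an adjusted p of 0.0018, and over 15 alternative settings the adjusted p ran from 0.0018 to 0.44, below the threshold in 1 of them, and the log2 fold change from -2.09 to -1.56.

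Palb2 lies on the minus strand at chr7:122107262-122132985 (mm10), and its promoter is shown because it is shared with a neighbour. The window from 250 bases before to 50 bases after the RefSeq start site of Palb2 is chr7:122132897-122133196 on the minus strand of GRCm38.p6, the assembly of mm10. In this sequence, and in those shown later, capitals would mark an E2F-type motif, and Palb2 has none. 194 of its 300 bases also belong to the window of Dctn5, a dynactin subunit gene on the other strand, whose start site is 95 bases away.
Palb2: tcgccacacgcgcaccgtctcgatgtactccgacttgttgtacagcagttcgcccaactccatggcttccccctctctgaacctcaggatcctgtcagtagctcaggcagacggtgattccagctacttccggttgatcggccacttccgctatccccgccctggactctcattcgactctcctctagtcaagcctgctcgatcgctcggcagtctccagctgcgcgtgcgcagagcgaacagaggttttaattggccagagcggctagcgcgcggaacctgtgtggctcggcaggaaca
Dctn5, which was picked after its values were seen, stood at 63.8, 51.6, 53.4 and 57.2 CPM in hom and 83.7, 80.3, 78.6 and 82.6 CPM in het stem libraries, without overlap. In TA cells it stood at 45.3 to 68.5 CPM in hom and 77.6 to 95.1 CPM in het libraries, again without overlap. In Paneth cells it stood at 35.4 to 56.8 CPM in hom and 53.1 to 100.0 CPM in het libraries, where the groups overlap. Its log2 fold change in stem cells was -0.53 (SE 0.13), with an edgeR adjusted p of 0.26 and a DESeq2 adjusted p of 0.011. Both genes of this pair read lower in hom stem libraries without passing the edgeR threshold. The cause of these lower values was not tested. Of the Palb2 exon bases, 5.64% also lie in exons of the antisense gene Gm16326, whose reads cannot be told apart in unstranded counting.

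Across the list in stem cells, edgeR called 0 of 45 members, against 0.0125% of all genes tested. 6 members had an unadjusted p below 0.05, 1 higher and 5 lower in hom, against 6.73% of all genes (2.76% higher and 3.97% lower). DESeq2 called 1 member, Palb2, and 1.16% of all genes. 29 of 45 log2 fold changes were negative, against 49.5% of all genes, with a median of -0.10 over the members and 0.00 over all genes. The libraries of the genotypes did not overlap for 2 members, Palb2 and Fancg, both lower in hom, against 2.93% of all genes, and for 0 members higher in hom, against 1.92%.

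Fancg (chr4:43002343-43010506, mm10), which encodes a scaffold subunit of the core complex, stood at 5.22, 4.42, 3.20 and 3.85 CPM in hom and 8.10, 9.42, 5.80 and 7.18 CPM in het stem libraries. Every hom library lay under every het library, with a log2 fold change of -0.88 (SE 0.26) and an edgeR adjusted p of 0.47. The other subunits were closer together. Fancl stood at 30.6 ± 2.68 CPM in hom and 33.2 ± 4.42 CPM in het, Fancb at 15.5 ± 4.56 and 15.5 ± 6.80 CPM, and Ube2t at 64.1 ± 10.5 and 59.4 ± 12.5 CPM (SD, n = 4 each). The promoter window of Fancg (chr4:43010252-43010551, minus strand, GRCm38.p6) is one of 9 member windows that hold an E2F-type motif, in capitals at -52 from the start site:
Fancg: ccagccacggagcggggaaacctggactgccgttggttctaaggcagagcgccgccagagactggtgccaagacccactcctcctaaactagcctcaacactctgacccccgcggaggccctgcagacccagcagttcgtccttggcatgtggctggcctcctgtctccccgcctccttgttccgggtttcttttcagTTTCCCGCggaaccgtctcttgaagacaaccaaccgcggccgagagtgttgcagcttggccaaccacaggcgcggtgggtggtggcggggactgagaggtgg

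Prkdc (chr16:15637866-15842235, mm10) encodes the catalytic subunit of DNA-PK, the kinase of end joining, and stood at 5.34, 11.8, 6.58 and 9.05 CPM in hom and 10.2, 21.5, 18.7 and 13.2 CPM in het stem libraries. The groups overlapped only through hom BO25, above het BN44. Its log2 fold change was -0.96 (SE 0.32), with an edgeR adjusted p of 0.56. All 6 end-joining members had negative log2 fold changes in stem cells, with a median of -0.39. Of 10 other end-joining genes outside the list, 7 had positive and 3 negative values there, with a median of 0.03. Xrcc4, the scaffold that holds the ligase LIG4, stood at 15.5 ± 4.97 CPM in hom and 22.1 ± 3.90 CPM in het, and Xrcc6 at 90.7 ± 18.7 and 97.5 ± 11.3 CPM (SD, n = 4 each).

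Slx4, the nuclease scaffold, was the member with an unadjusted p below 0.05 that stood higher in hom stem cells. Its level was 3.23, 6.51, 4.24 and 7.92 CPM in hom and 2.08, 2.81, 3.39 and 2.19 CPM in het libraries, with the hom library of BN45 inside the het range. The log2 fold change of Slx4 was 1.06 (SE 0.36), with an edgeR adjusted p of 0.57. Of the 6 helicase and nuclease members, 5 had positive log2 fold changes, with a median of 0.23. Among them Blm, the Bloom helicase gene, stood at 12.5 ± 2.63 CPM in hom and 9.61 ± 3.31 CPM in het stem libraries (SD, n = 4 each).

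Among the damage sensors and kinases in stem cells, Atr, which encodes the kinase of replication stress, stood at 15.3, 28.8, 18.2 and 18.0 CPM in hom and 21.1, 35.0, 31.0 and 36.1 CPM in het libraries. Rad50, the coiled-coil ATPase of the end-binding complex, stood at 32.8, 46.1, 52.7 and 44.3 CPM in hom and 44.2, 65.7, 60.5 and 66.8 CPM in het libraries. Both pairs of groups overlapped, through hom BO25 for Atr and through het BN44 for Rad50. Their log2 fold changes were -0.62 (SE 0.25) for Atr and -0.44 (SE 0.20) for Rad50, with edgeR adjusted p of 0.71 and 0.74. Topbp1, the activator of ATR, stood at 36.0 ± 6.17 CPM in hom and 49.5 ± 14.3 CPM in het stem libraries, and Chek2 at 75.9 ± 13.0 and 62.9 ± 8.10 CPM. Atm stood at 17.7 ± 6.34 CPM in hom and 17.9 ± 6.40 CPM in het stem libraries (SD, n = 4 each).

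The breast cancer genes themselves showed no call in stem cells. Brca1 stood at 19.2 ± 4.87 CPM in hom and 15.8 ± 3.63 CPM in het stem libraries, Brca2 at 12.8 ± 4.13 and 16.9 ± 3.95 CPM, and the BRCA1 partner gene Bard1 at 4.17 ± 2.16 and 5.59 ± 1.41 CPM. Brip1, the BRCA1-associated helicase gene, stood at 8.30 ± 3.36 CPM in hom and 12.8 ± 4.40 CPM in het stem libraries (SD, n = 4 each), with a log2 fold change of -0.63 (SE 0.36) and an edgeR adjusted p of 0.82.

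**Figure D1:**
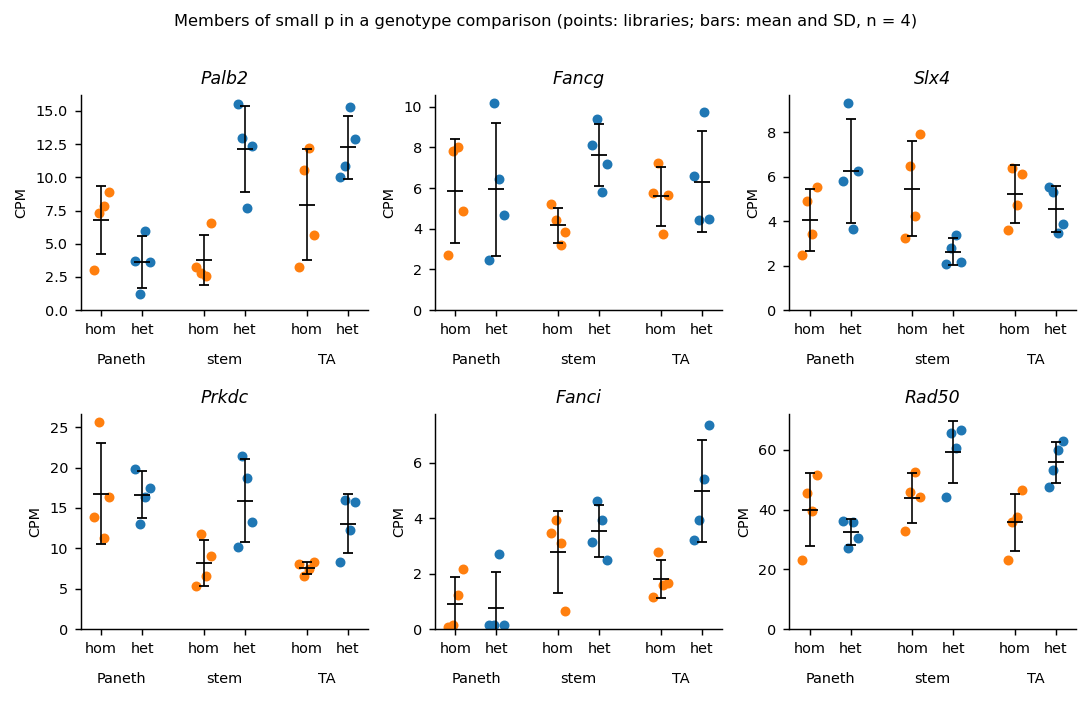
Level in CPM (linear axis from 0) of 6 members in each library, with hom (orange) left of het (blue) within the Paneth, stem and TA fractions; points are libraries and bars the mean and SD of 4. Palb2 and Fancg do not overlap between genotypes in stem cells, Fanci, Prkdc and Rad50 do not overlap in TA cells, and Palb2 is spread the other way in Paneth cells.

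In TA cells, too, edgeR called 0 of 45 members, as it called 0 of all 15925 genes (0%). 6 members had an unadjusted p below 0.05, 1 higher and 5 lower in hom, against 5.92% of all genes (2.91% higher and 3% lower). DESeq2 called 0 members and 0.44% of all genes. 33 of 45 log2 fold changes were negative, against 50% of all genes, with a median of -0.16. In the same libraries 23 of 25 S phase genes had negative log2 fold changes, with a median of -0.22, none of them called, and whether cell cycle genes and members moved together was not tested. The libraries did not overlap for 5 members, Fanci, Prkdc, Xrcc3, Rad50 and Xrcc6, all lower in hom, against 2.19% of all genes, and for 0 members higher in hom, against 1.98%.

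Fanci (chr7:79391929-79450264, mm10), the partner of Fancd2, stood at 1.16, 2.79, 1.61 and 1.67 CPM in hom and 3.21, 3.95, 5.41 and 7.38 CPM in het TA libraries. The highest hom library, of BO25, lay below the lowest het library, of BN44. With a log2 fold change of -1.45 (SE 0.38), its edgeR adjusted p was 0.59. Fancd2 itself stood at 5.07, 3.65, 6.68 and 11.0 CPM in hom and 8.81, 12.1, 9.40 and 13.0 CPM in het TA libraries, where the hom library of BP04 lay inside the het range, and its adjusted p was 0.86. Usp1, which acts on the same pair, stood at 78.0 ± 10.7 CPM in hom and 78.4 ± 11.4 CPM in het TA libraries (SD, n = 4 each). Exons of the antisense gene Polg cover 16.0% of the Fanci exon bases.

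The end-joining members again all had negative log2 fold changes in TA cells, which came from the same animals. Of the 10 other end-joining genes 6 were negative in TA cells. In Paneth cells 3 of the 6 members were negative, with a median of -0.08. Prkdc stood at 8.05, 6.53, 7.50 and 8.28 CPM in hom and 8.31, 16.0, 12.3 and 15.7 CPM in het TA libraries, with the hom and het groups separated by the small gap between hom BP04 and het BN44. Lig4, the ligase of end joining, stood at 2.17, 7.50, 4.92 and 5.87 CPM in hom and 6.46, 12.5, 8.77 and 14.0 CPM in het TA libraries, where hom BO25 lay above het BN44. Their log2 fold changes were -0.78 (SE 0.24) for Prkdc and -1.02 (SE 0.38) for Lig4, with edgeR adjusted p of 0.67 and 0.80. Xrcc6 stood at 78.2, 78.2, 78.4 and 84.7 CPM in hom and 91.8, 86.6, 87.1 and 94.0 CPM in het TA libraries, a small shift without overlap.

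Xrcc3, a gene of homologous recombination, stood at 9.88, 8.94, 6.46 and 9.38 CPM in hom and 17.6, 12.1, 11.8 and 13.4 CPM in het TA libraries. Rad50 stood at 23.1, 35.7, 37.6 and 46.4 CPM in hom and 47.6, 53.3, 59.8 and 62.9 CPM in het TA libraries. Neither gene overlapped between the genotypes. The log2 fold changes of Xrcc3 and Rad50 were -0.65 (SE 0.21) and -0.64 (SE 0.21), with edgeR adjusted p of 0.70 and 0.70. Trp53bp1, which encodes 53BP1, a chromatin reader that shields broken ends from resection, was the member higher in hom at an unadjusted p below 0.05. It stood at 15.0, 14.6, 9.77 and 15.2 CPM in hom and 8.44, 6.29, 7.53 and 10.4 CPM in het TA libraries, with hom BO57 just under het BP03, a log2 fold change of 0.75 (SE 0.22) and an edgeR adjusted p of 0.67. Exons of the antisense gene Tubgcp4 cover 15.0% of its exon bases.

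Palb2 and Fancg overlapped between the genotypes in TA libraries. Palb2 stood at 3.25, 10.6, 12.2 and 5.67 CPM in hom and 10.0, 10.9, 15.3 and 12.9 CPM in het TA libraries, where hom BO25 and BO57 lay inside the het range. Fancg stood at 5.60 ± 1.44 CPM in hom and 6.31 ± 2.50 CPM in het TA libraries, Brca1 at 17.3 ± 3.71 and 16.1 ± 4.89 CPM. Brca2 stood at 13.0 ± 3.65 and 16.3 ± 5.43 CPM in hom and het TA libraries, and Atm at 13.8 ± 4.66 and 14.1 ± 3.52 CPM (SD, n = 4 each). The nuclease pair Mus81 and Eme1, which together form 1 enzyme, stood at 3.44 ± 1.52 and 6.11 ± 2.67 CPM in hom and 5.92 ± 1.48 and 9.76 ± 2.21 CPM in het TA libraries (SD, n = 4 each). Their edgeR adjusted p were 0.86 for Mus81 and 0.87 for Eme1.

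In the Paneth fraction 44 members could be tested, since Fanci fell under the filter, and edgeR called 0 of them and 0 of all 16108 genes (0%). 1 member, Fancb, had an unadjusted p below 0.05 and was higher in hom, against 2.28% of all genes (0.919% higher and 1.37% lower). DESeq2 called 0 members and 0.0372% of all genes. 20 of the 44 log2 fold changes were negative, against 50.4% of all genes, with a median of 0.06, and the libraries of the genotypes overlapped for every member, while 0.838% of all genes were apart and higher and 0.925% apart and lower in hom. With library totals in place of TMM the medians were -0.08 over the members and -0.17 over all genes. Fancb, an X-linked core complex gene, stood at 6.44, 4.44, 9.06 and 8.42 CPM in hom and 2.70, 2.58, 3.62 and 5.15 CPM in het Paneth libraries, where hom BO25 lay inside the het range. The log2 fold change was 1.01 (SE 0.43), with an edgeR adjusted p of 1.00. Palb2 stood at 3.02, 7.34, 7.86 and 8.93 CPM in hom and 3.68, 1.20, 5.96 and 3.62 CPM in het Paneth libraries. Here 3 of 4 hom libraries lay above every het library and BN45 did not, with a log2 fold change of 0.89 (SE 0.54) and an edgeR adjusted p of 1.00. Fanci was barely detected in this fraction, at 0.0795, 0.163, 1.25 and 2.16 CPM in hom and 0.140, 0.138, 2.70 and 0.134 CPM in het libraries, which is 1 to 4 counts in 5 of the 8 libraries.

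**Figure D2:**
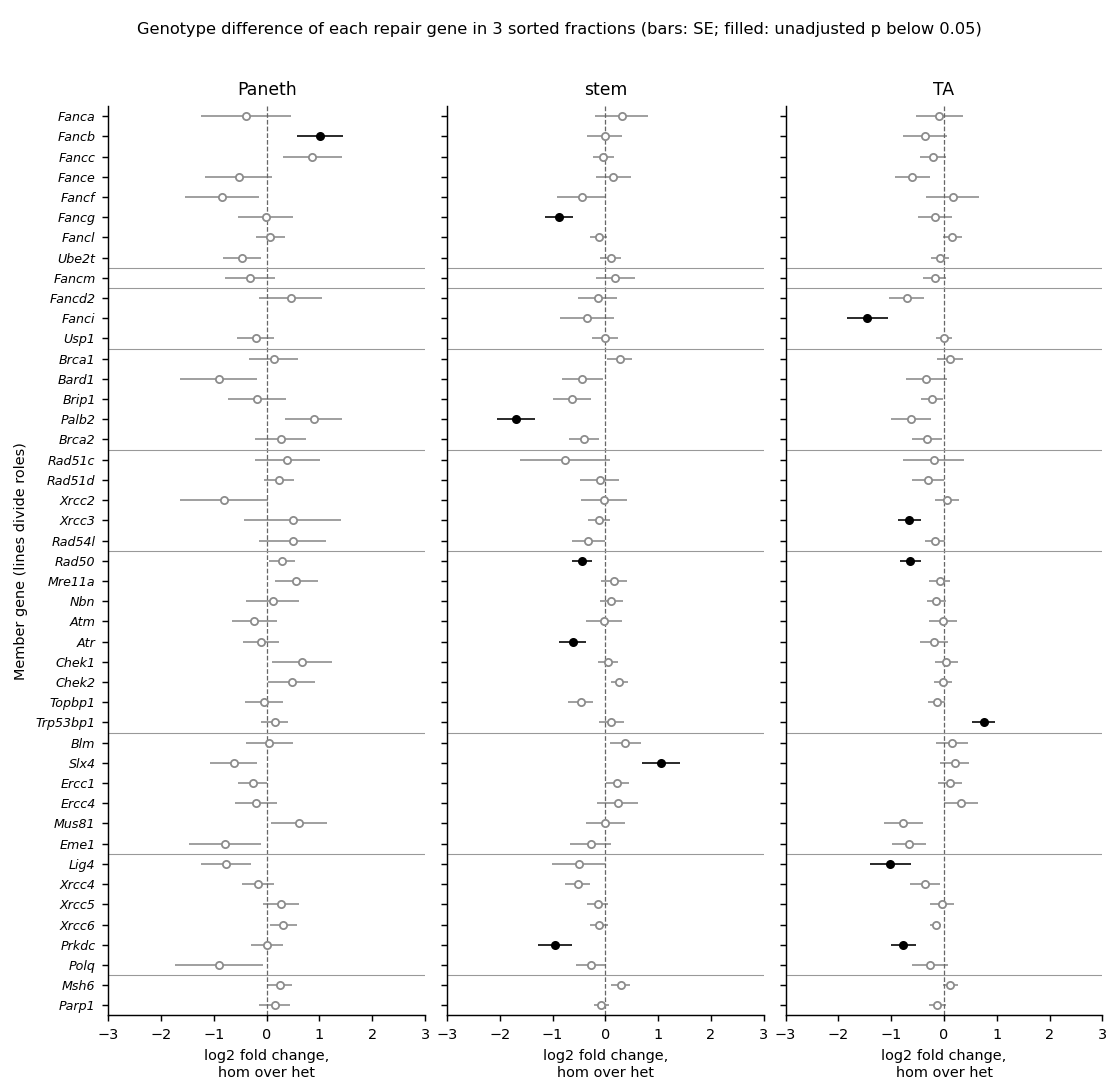
Log2 fold change of hom over het (x axis, positive higher in hom) for each member (rows, grouped by role) in the Paneth, stem and TA fractions; bars are the standard error and filled points have an unadjusted edgeR p below 0.05. 1 point is filled for Paneth cells and 6 each for stem and TA cells, none passes the adjusted threshold, and Palb2 has the lowest value in stem cells and lies right of 0 in Paneth cells.

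Whether the genotype effect differed between fractions was tested in 1 fit of all 24 libraries. The genotype comparisons of stem and TA cells share their animals, so their values stand side by side and are not taken as repeats of each other. The edgeR test called 0 of 45 members for each of the 3 pairs of fractions, against 0% of all genes for stem minus TA and for stem minus Paneth and 0.00516% for TA minus Paneth. At an unadjusted p below 0.05 there were 0 members for stem minus TA (3.95% of all genes), 4 for stem minus Paneth (1 higher and 3 lower; 6.28%) and 4 for TA minus Paneth (all lower; 4.98%). DESeq2 called 1 member, Palb2, for stem minus Paneth (0.247% of all genes), 0 for stem minus TA (0.0722%) and 0 for TA minus Paneth (0.119%).

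For Palb2 the effect in stem cells minus that in Paneth cells was -2.60 (SE 0.64) on the log2 scale, with an edgeR unadjusted p of 0.00051 and an adjusted p of 0.41. DESeq2 gave an adjusted p of 0.025, and over 14 alternatives the adjusted p ran from 0.025 to 0.69, below the threshold in 1. For Slx4 the same difference was 1.68 (SE 0.49), with an adjusted p of 0.50, and for Prkdc it was -0.96 (SE 0.41), with an adjusted p of 0.72. Between TA and Paneth cells the difference was -0.95 (SE 0.32) for Rad50, -1.39 (SE 0.56) for Fancb and -1.54 (SE 0.63) for Palb2, with edgeR adjusted p of at least 0.90. Between stem and TA cells the 3 members of lowest p were Trp53bp1 at -0.62 (SE 0.34), Slx4 at 0.87 (SE 0.49) and Palb2 at -1.06 (SE 0.63), with edgeR adjusted p of 1.00.

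Few members separated stem from TA cells. Goblet markers differed strongly between these fractions, at 107 to 1095 CPM in stem and 4427 to 11840 CPM in TA libraries, and their part in the values of this comparison was not tested. edgeR called 0 of 45 members between stem and TA cells of hom mice, against 4.61% of all genes, and 0 of 45 in het mice, against 6.26% of all genes. At an unadjusted p below 0.05 there were 3 members in hom, 2 higher and 1 lower in stem cells, against 17.8% of all genes. In het there were 6, 4 higher and 2 lower, against 20.3%. DESeq2 called Chek2 in hom, against 9.85% of all genes, and Fancl, Lig4 and Trp53bp1 in het mice, against 12.1%. With the animal as a block, which the design supports because each mouse gave both libraries, edgeR called Chek2 in hom mice (adjusted p = 0.044) and Trp53bp1 in het mice (adjusted p = 0.034). The share of all genes called with the block is not given here.

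Chek2, the checkpoint kinase that relays the ATM signal, stood at 73.0, 72.9, 63.5 and 94.3 CPM in stem libraries and 42.5, 37.0, 55.2 and 54.2 CPM in TA libraries of hom mice, without overlap. In het mice it stood at 71.0, 51.7, 65.3 and 63.4 CPM in stem libraries and 55.4, 40.7, 52.5 and 44.0 CPM in TA libraries, where TA BN44 lay above stem BO27. Its log2 fold change of stem over TA cells was 0.67 (SE 0.18) in hom, with an edgeR adjusted p of 0.070, and 0.38 (SE 0.16) in het, with 0.20. Over 10 alternatives the adjusted p in hom ran from 0.010 to 0.25 and lay below 0.05 in 4. Xrcc5 stood at 27.8 to 39.0 CPM in stem libraries and 21.3 to 26.4 CPM in TA libraries of hom mice, again without overlap, and Fancl at 29.0 to 38.9 CPM in stem libraries and 23.0 to 24.6 CPM in TA libraries of het mice. Lig4 stood the other way in het mice, at 3.08, 4.05, 8.15 and 3.16 CPM in stem libraries and 6.46, 12.5, 8.77 and 14.0 CPM in TA libraries, where stem BO58 lay inside the TA range, with an edgeR adjusted p of 0.11.

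Some members separated the Paneth fraction from the other fractions in both genotypes. Against TA cells of the same genotype, edgeR called 9 members in hom mice, 2 higher and 7 lower in Paneth cells, against 28.5% of all genes (16.3% higher and 12.2% lower). DESeq2 called 15 there, against 34.6%. edgeR called 15 in het mice, 2 higher and 13 lower, against 29.2% (17.4% higher and 11.8% lower). Against stem cells it called 13 members in hom mice, 3 higher and 10 lower, against 30.5% (17.4% higher and 13.2% lower). It called 16 in het mice, 3 higher and 13 lower, against 28.3% (17.3% higher and 11% lower). The share of members called at all was thus 20.0% and 33.3% against TA and 28.9% and 35.6% against stem cells in hom and het mice, close to the share of all genes. Their direction leaned to the lower side. The median log2 fold change was -0.31 in hom and -0.63 in het mice against TA cells and -0.40 and -0.70 against stem cells, while the median of all genes lay between 0.05 and 0.08. These 4 comparisons share libraries within a genotype, but the hom and het comparisons share none. 7 members (15.6%) were called against TA cells in both, against 21% of all genes tested in both, and 10 (22.2%) against stem cells in both, against 20.9%. The 7 make up 77.8% of the hom and 46.7% of the het calls of members, where the shares over all genes were 72.0% and 70.4%. The 10 make up 76.9% of the hom and 62.5% of the het calls, where the shares over all genes were 67.0% and 72.3%.

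6 members were called in all 4 comparisons, Blm, Chek2, Fancb, Ube2t and Xrcc6 lower in Paneth cells and Trp53bp1 higher. That is 13.3% of the members, against 14.6% of the 15060 genes tested in all 4. Blm (chr7:80454733-80535119, mm10), the helicase that dissolves recombination intermediates, stood at 3.02, 4.16, 3.62 and 3.67 CPM in Paneth, 13.5, 13.3, 8.64 and 14.5 CPM in stem libraries and 10.2, 9.56, 12.4 and 15.3 CPM in TA libraries of hom mice. In het mice it stood at 3.44, 3.72, 2.45 and 4.30 CPM in Paneth, 8.32, 5.58, 12.9 and 11.6 CPM in stem libraries and 9.91, 16.0, 11.4 and 5.77 CPM in TA libraries. Paneth libraries lay below all others of their genotype. Against TA cells the log2 fold change was -1.68 (SE 0.27) in hom and -1.61 (SE 0.38) in het mice, with edgeR adjusted p of 0.0019 and 0.011. Against stem cells it was -1.76 (SE 0.29) in hom and -1.43 (SE 0.38) in het mice, with adjusted p of 0.0016 and 0.018. In het mice the calls ended without BN44 or BO27 against TA cells (adjusted p = 0.053 and 0.055), and against stem cells with the animal as a block (0.051) and without BN44, BO58 or BP03 (0.071, 0.083 and 0.071).

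Xrcc6 (chr15:81987835-82040085, mm10) stood at 29.9, 50.2, 51.2 and 51.7 CPM in Paneth libraries of hom mice, against 78.2, 78.2, 78.4 and 84.7 CPM in their TA and 117, 86.6, 73.4 and 85.5 CPM in their stem libraries. In het mice it stood at 29.2, 28.4, 50.1 and 38.3 CPM in Paneth, against 91.8, 86.6, 87.1 and 94.0 CPM in TA and 109, 105, 89.9 and 85.9 CPM in stem libraries. No Paneth library reached the lowest of the other fractions. Against TA cells its log2 fold change was -0.79 (SE 0.17) in hom and -1.28 (SE 0.21) in het mice (edgeR adjusted p = 0.0084 and 0.0021), and against stem cells -0.97 (SE 0.21) and -1.39 (SE 0.22) (0.0078 and 0.0013). Each of these 4 calls held in all 10 alternatives tried. Its Ku partner Xrcc5 was called in none of the 4 comparisons and stood at 29.9 ± 9.64 CPM in hom and 24.4 ± 10.4 CPM in het Paneth libraries (SD, n = 4 each), and overlapped the TA libraries of either genotype.

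Ube2t, the conjugating enzyme that serves FANCL, stood at 8.98, 14.0, 15.8 and 32.7 CPM in hom Paneth libraries, against 42.5 to 65.9 CPM in hom TA and 53.5 to 74.3 CPM in hom stem libraries. Het Paneth libraries held 16.3, 28.5, 29.4 and 23.98 CPM of it, against 44.8 to 62.9 CPM in het TA and 43.6 to 72.7 CPM in het stem libraries. No Paneth library reached the others of its genotype. The log2 fold change against TA cells was -1.54 (SE 0.34) in hom and -1.16 (SE 0.23) in het mice, and against stem cells -1.82 (SE 0.33) and -1.25 (SE 0.24), with edgeR adjusted p between 0.0029 and 0.0082. Without BO57 the hom call against TA cells ended (adjusted p = 0.055). Fancb stood at 6.44, 4.44, 9.06 and 8.42 CPM in Paneth libraries of hom mice, against 8.97 to 22.4 CPM in TA and 10.2 to 20.9 CPM in stem libraries. It stood at 2.70, 2.58, 3.62 and 5.15 CPM in Paneth libraries of het mice, against 7.81 to 30.8 CPM in TA and 10.0 to 24.3 CPM in stem libraries. The Paneth range touched that of TA cells only in hom mice, through BO57 in Paneth and BO25 in TA. Its log2 fold change against TA cells was -1.16 (SE 0.36) in hom (edgeR adjusted p = 0.036) and -2.55 (SE 0.43) in het mice (0.0022), and the hom call ended without BN45, BO57 or BP04 (adjusted p = 0.085, 0.11 and 0.11). Against stem cells it was -1.10 (SE 0.32) in hom (0.027) and -2.12 (SE 0.40) in het mice (0.0032), and the hom call ended without BN45, BO25 or BO57 (adjusted p = 0.14, 0.088 and 0.069).

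Chek2 stood at 16.1, 26.6, 21.5 and 30.3 CPM in hom Paneth libraries, below the 37.0 to 55.2 CPM of hom TA and the 63.5 to 94.3 CPM of hom stem libraries. In het Paneth libraries it stood at 14.2, 4.64, 23.7 and 25.3 CPM, with BO27 lowest, below the 40.7 to 55.4 CPM of het TA and the 51.7 to 71.0 CPM of het stem libraries. Against stem cells its log2 fold change was -1.66 (SE 0.21) in hom and -1.86 (SE 0.43) in het mice, with edgeR adjusted p of 0.00044 and 0.0091, and the het call ended without BN44 (adjusted p = 0.060). Against TA cells of hom mice it was -0.98 (SE 0.21), with an adjusted p of 0.0083, and 0.066 without BO57. Its relative Chek1, the kinase downstream of ATR, was called in 3 of the 4 comparisons. It stood at 7.55 to 34.5 CPM in Paneth and 30.9 to 59.1 CPM in stem libraries of hom mice, and at 3.35 to 23.0 CPM in Paneth and 41.4 to 49.1 CPM in stem libraries of het mice. Against stem cells its call ended without BN45, BO25 or BO57 in hom (edgeR adjusted p = 0.095, 0.067 and 0.13) and without BO58 or BP03 in het mice (0.058 and 0.059). Against TA cells of het mice it ended without BN44, BO58 or BP03 (0.10, 0.14 and 0.14). The call of Chek2 in that comparison ended without BN44 or BO58 (0.13 and 0.052).

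The promoter windows of the called members differed in the motifs they hold. The windows shown are those of Xrcc6 (chr15:82016119-82016418, plus strand), Chek2 (chr5:110839733-110840032, plus strand), Ube2t (chr1:134962315-134962614, plus strand) and Trp53bp1 (chr2:121271358-121271657, minus strand), all GRCm38.p6, chosen as 3 members lower and the 1 member higher in all 4 Paneth comparisons. Capitals mark the E2F-type motif, which lies at -46 in Xrcc6 and at -152 in Chek2 from the start site and is in neither of the others. The letters CCAAT, on either strand, occur 3 times in Ube2t, 2 times in Chek2, 1 time in Xrcc6 and 0 times in Trp53bp1.
Xrcc6: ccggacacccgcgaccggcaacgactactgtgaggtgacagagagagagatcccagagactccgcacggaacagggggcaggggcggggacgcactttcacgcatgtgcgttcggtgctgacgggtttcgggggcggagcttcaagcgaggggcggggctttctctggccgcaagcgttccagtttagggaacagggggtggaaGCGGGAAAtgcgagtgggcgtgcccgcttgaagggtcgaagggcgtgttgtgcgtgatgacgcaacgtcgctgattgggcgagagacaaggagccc
Chek2: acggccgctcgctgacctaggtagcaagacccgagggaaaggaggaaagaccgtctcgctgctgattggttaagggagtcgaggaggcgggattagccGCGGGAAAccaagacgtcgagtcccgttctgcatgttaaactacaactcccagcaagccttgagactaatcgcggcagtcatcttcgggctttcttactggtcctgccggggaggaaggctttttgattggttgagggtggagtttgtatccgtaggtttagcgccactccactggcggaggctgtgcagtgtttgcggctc
Ube2t: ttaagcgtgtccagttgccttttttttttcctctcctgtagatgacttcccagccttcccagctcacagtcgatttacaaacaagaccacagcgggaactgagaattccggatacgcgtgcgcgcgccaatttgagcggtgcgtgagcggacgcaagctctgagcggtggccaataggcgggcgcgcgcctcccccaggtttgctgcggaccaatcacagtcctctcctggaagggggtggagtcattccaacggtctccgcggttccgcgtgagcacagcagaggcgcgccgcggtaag
Trp53bp1: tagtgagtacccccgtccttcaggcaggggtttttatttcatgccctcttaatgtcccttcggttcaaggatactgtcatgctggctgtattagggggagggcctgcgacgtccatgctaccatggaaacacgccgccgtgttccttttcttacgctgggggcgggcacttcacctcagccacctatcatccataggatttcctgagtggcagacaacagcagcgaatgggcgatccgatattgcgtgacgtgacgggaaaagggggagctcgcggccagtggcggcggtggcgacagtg
The E2F-type motif was searched as TTTCCCGC, TTTGGCGC, TTTCGCGC and TTTGCCGC on both strands. Promoters of 38 members were in the RefSeq table, 41 windows in all, since Rad51c, Rad54l and Lig4 have 2 each. Of these windows 9 held it (21.95%), against 2.26% of all 32851 windows in the table. They belong to 8 members, Bard1, Brca2, Chek2, Fancg, Msh6, Rad51c, Topbp1 and Xrcc6. Of the windows of members called lower in at least 1 Paneth comparison 2 of 13 held it (15.4%), and of those of the other members 7 of 28 (25%). CCAAT was in 22 of the 41 member windows (53.7%) against 37.4% of all, in 10 of 13 of those of members called lower (76.9%) and in 12 of 28 of the others (42.9%). A match says only that these letters are there.

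**Figure D3:**
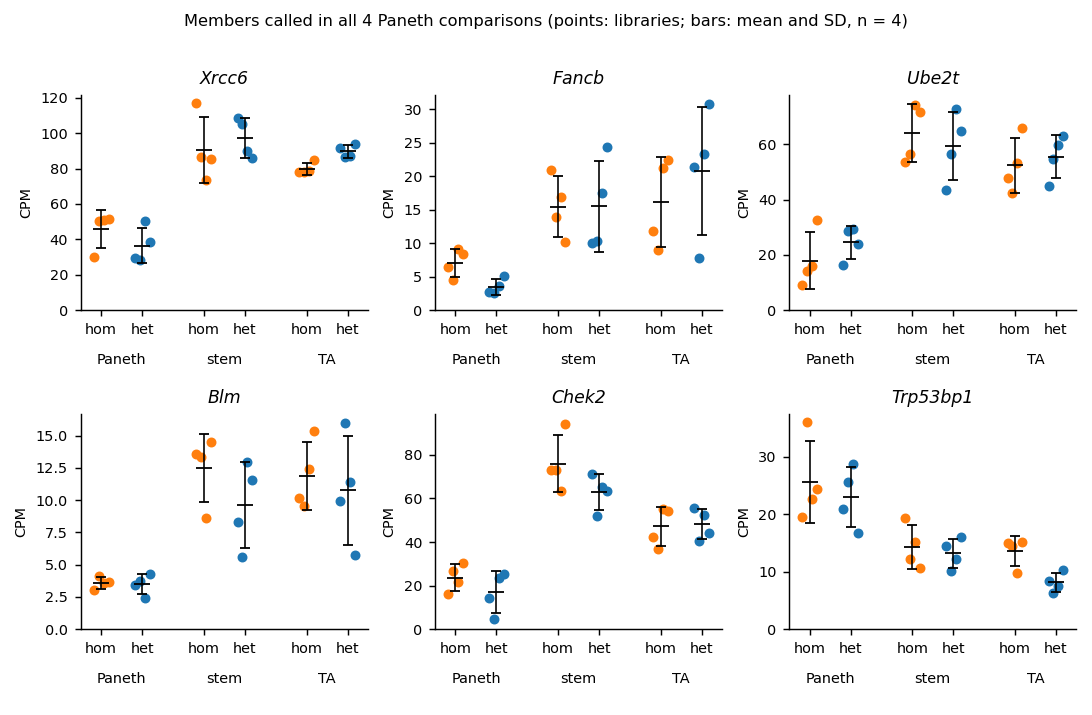
Level in CPM (linear axis from 0) of the 6 members called in all 4 Paneth comparisons, in each library, with hom (orange) left of het (blue) within the Paneth, stem and TA fractions; bars are the mean and SD of 4 libraries. The first 5 genes are lowest in Paneth libraries of both genotypes and Trp53bp1 is highest there.

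The remaining lower calls covered recombination and nuclease members. Eme1, the partner of MUS81, stood at 1.43, 2.12, 2.16 and 0.684 CPM in Paneth and 3.85 to 9.61 CPM in TA libraries of hom mice. It stood at 2.28, 1.79, 1.32 and 5.68 CPM in Paneth and 6.93 to 12.1 CPM in TA libraries of het mice. The Paneth libraries lay below all TA libraries of their genotype. Its log2 fold change against TA cells was -1.90 (SE 0.50) in hom and -1.80 (SE 0.48) in het mice (edgeR adjusted p = 0.019 and 0.020). The call ended without any of BN45, BO25 or BO57 in hom (0.058, 0.060 and 0.083) and without any of BN44, BO27 or BO58 in het mice (0.091, 0.056 and 0.072). Its partner Mus81 was not called and stood at 7.93 ± 3.01 CPM in hom and 5.15 ± 2.79 CPM in het Paneth libraries (SD, n = 4 each). Exons of the antisense genes Lrrc59 and Mrpl27 cover 10.7% of the Eme1 exon bases.

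Xrcc3 stood at 3.74, 5.67, 2.24 and 0.612 CPM in hom and 3.77, 0.138, 3.29 and 1.48 CPM in het Paneth libraries, where it was near the limit of detection in het BO27. In TA libraries it stood at 6.46 to 9.88 CPM in hom and 11.8 to 17.6 CPM in het mice, above every Paneth library. Xrcc3 had a log2 fold change in het mice of -2.63 (SE 0.70), with an edgeR adjusted p of 0.019, and the call ended without BN44 or BP03 (0.057 and 0.083). Rad54l, which remodels DNA during recombination, stood at 4.16 to 19.0 CPM in Paneth and 21.2 to 30.5 CPM in TA libraries of hom mice and at 1.61 to 15.3 and 24.4 to 38.1 CPM in those of het mice. It was called against TA cells in het mice, and this call ended without BN44 or BO58 (edgeR adjusted p = 0.076 and 0.097). In hom mice its edgeR adjusted p was 0.052, and it lay below 0.05 in 5 of 10 alternatives. These were DESeq2 (0.014), the animal as a block (0.038), library totals (0.012), no filter (0.023) and a mean of at least 5 CPM (0.044). Exons of the antisense gene Lrrc41 cover 15.4% of its exon bases.

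Palb2, Fancd2 and Rad50 were called lower in Paneth cells of het mice against both other fractions, and in hom mice against neither. Palb2 stood at 1.20 to 5.96 CPM in Paneth libraries of het mice, against 10.0 to 15.3 CPM in TA and 7.69 to 15.5 CPM in stem libraries. Palb2 had a log2 fold change in het mice of -1.73 (SE 0.45) against TA and -1.72 (SE 0.47) against stem cells, with edgeR adjusted p of 0.017 and 0.020; without BN44 these were 0.064 and 0.10 and without BP03 0.077 and 0.080. In hom mice the Paneth libraries of Palb2, at 3.02 to 8.93 CPM, overlapped those of TA cells, at 3.25 to 12.2 CPM, and those of stem cells, at 2.58 to 6.54 CPM. Fancd2 stood at 4.37, 4.97, 2.45 and 4.43 CPM in Paneth and 3.65 to 11.0 CPM in TA libraries of hom mice, and at 1.35, 4.23, 5.08 and 1.21 CPM in Paneth and 8.81 to 13.0 CPM in TA libraries of het mice. In het mice its log2 fold change against TA cells was -1.84 (SE 0.50) (edgeR adjusted p = 0.021), and the call ended without BN44, BO27 or BP03 (0.071, 0.055 and 0.092). Rad50 stood at 23.2 to 51.6 CPM in Paneth libraries of hom and 27.2 to 36.2 CPM in those of het mice. In het mice it changed by -0.76 (SE 0.18) on the log2 scale against TA and -0.84 (SE 0.20) against stem cells (edgeR adjusted p = 0.012 and 0.012), and these calls ended without BP03 (0.091 and 0.075) and, against stem cells, without BO27 (0.071). A call in 1 genotype alone is not a test of the genotypes, and edgeR called none of these 3 genes in the tests between fractions given above.

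The other members of the end-binding complex were called too. Mre11a, the nuclease of that complex, was lower in 3 of the 4 comparisons and stood at 14.3 ± 4.59 CPM in hom and 9.55 ± 5.23 CPM in het Paneth libraries, while hom and het stem libraries held 28.0 ± 10.5 and 24.9 ± 2.81 CPM (SD, n = 4 each). Its het calls ended without BO27, BO58 or BP03, against stem cells (edgeR adjusted p = 0.063, 0.080 and 0.085) as against TA cells (0.074, 0.11 and 0.080). The hom call against stem cells ended without BN45, BO25 or BO57 (0.23, 0.16 and 0.051) and with the animal as a block (0.11). Nbn, its signalling subunit, was lower in hom Paneth cells against both fractions, at 16.5, 26.5, 20.0 and 22.4 CPM in Paneth, 30.3 to 44.4 CPM in TA and 36.4 to 50.4 CPM in stem libraries. Its log2 fold change was -0.71 (SE 0.20) against TA and -0.99 (SE 0.20) against stem cells (edgeR adjusted p = 0.024 and 0.0044), and the call against TA cells ended without BN45, BO57 or BP04 (0.12, 0.12 and 0.051). In het mice Nbn stood at 23.0, 3.22, 25.9 and 26.1 CPM in Paneth libraries, with BO27 far under the other 3.

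Trp53bp1 (chr2:121193281-121271407, mm10) stood higher in Paneth cells, at 19.6, 36.0, 22.6 and 24.4 CPM in Paneth, 19.4, 12.3, 15.2 and 10.7 CPM in stem libraries and 15.0, 14.6, 9.77 and 15.2 CPM in TA libraries of hom mice. In het mice it stood at 20.9, 25.6, 28.8 and 16.8 CPM in Paneth, 14.4, 10.1, 12.3 and 16.0 CPM in stem libraries and 8.44, 6.29, 7.53 and 10.4 CPM in TA libraries. Every Paneth library lay above every stem and TA library of its genotype. Against TA cells Trp53bp1 had a log2 fold change of 0.94 (SE 0.24) in hom and 1.52 (SE 0.27) in het mice (edgeR adjusted p = 0.018 and 0.0026). The het call held in all 10 alternatives, while the hom call ended when counts were scaled by library totals alone (log2 0.30, adjusted p = 0.55) and without BO25 or BO57 (0.070 and 0.071). Against stem cells of hom mice it was 0.86 (SE 0.27) (edgeR adjusted p = 0.034), which ended with the animal as a block (0.060), under library totals (log2 0.25, 0.64), with no filter on low counts (0.062) and without BO25, BO57 or BP04 (0.19, 0.093 and 0.098). The het call against stem cells (adjusted p = 0.034) ended with the same 3 settings (0.083, 0.44 and 0.085) and without BN44, BO27 or BO58 (0.094, 0.15 and 0.14).

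Lig4 and Prkdc of the end-joining group also stood higher in Paneth cells. Lig4 stood at 10.6, 6.32, 5.82 and 17.6 CPM in Paneth and 2.47, 1.10, 5.07 and 4.46 CPM in stem libraries of hom mice. It stood at 19.7, 5.75, 23.6 and 19.3 CPM in Paneth and 3.08, 4.05, 8.15 and 3.16 CPM in stem libraries of het mice. The groups were apart in hom mice and touched in het mice through Paneth BO27 and stem BO58. Lig4 differed from stem cells by a log2 fold change of 1.67 (SE 0.53) in hom and 1.92 (SE 0.49) in het mice (edgeR adjusted p = 0.038 and 0.014). Under library totals these were 1.01 (adjusted p = 0.18) and 1.43 (0.057), and the calls also ended without BN45, BO25 or BP04 in hom (0.17, 0.059 and 0.11) and without BN44 or BP03 in het mice (0.087 and 0.084). Prkdc stood at 13.8, 25.6, 11.3 and 16.3 CPM in Paneth and 8.05, 6.53, 7.50 and 8.28 CPM in TA libraries of hom mice, without overlap, and at 13.0 to 19.9 and 8.31 to 16.0 CPM in Paneth and TA libraries of het mice. The hom log2 fold change was 1.17 (SE 0.28) (edgeR adjusted p = 0.013), or 0.51 (0.32) under library totals, and without BO25 the adjusted p was 0.068. The nuclease gene Ercc4, against TA cells, and Slx4, against stem cells, were the other higher calls, both in het mice. Ercc4 stood at 6.35 to 14.9 CPM in Paneth and 2.60 to 5.92 CPM in TA libraries and Slx4 at 3.65 to 9.34 CPM in Paneth and 2.08 to 3.39 CPM in stem libraries. Both calls (edgeR adjusted p = 0.039 and 0.044) ended under library totals (0.20 and 0.24) and with the animal as a block (0.084 and 0.095). That of Ercc4 also ended without BN44, BO27, BO58 or BP03 (0.13, 0.064, 0.17 and 0.060), and that of Slx4 without BN44, BO27 or BP03 (0.16 each).

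**Figure D4:**
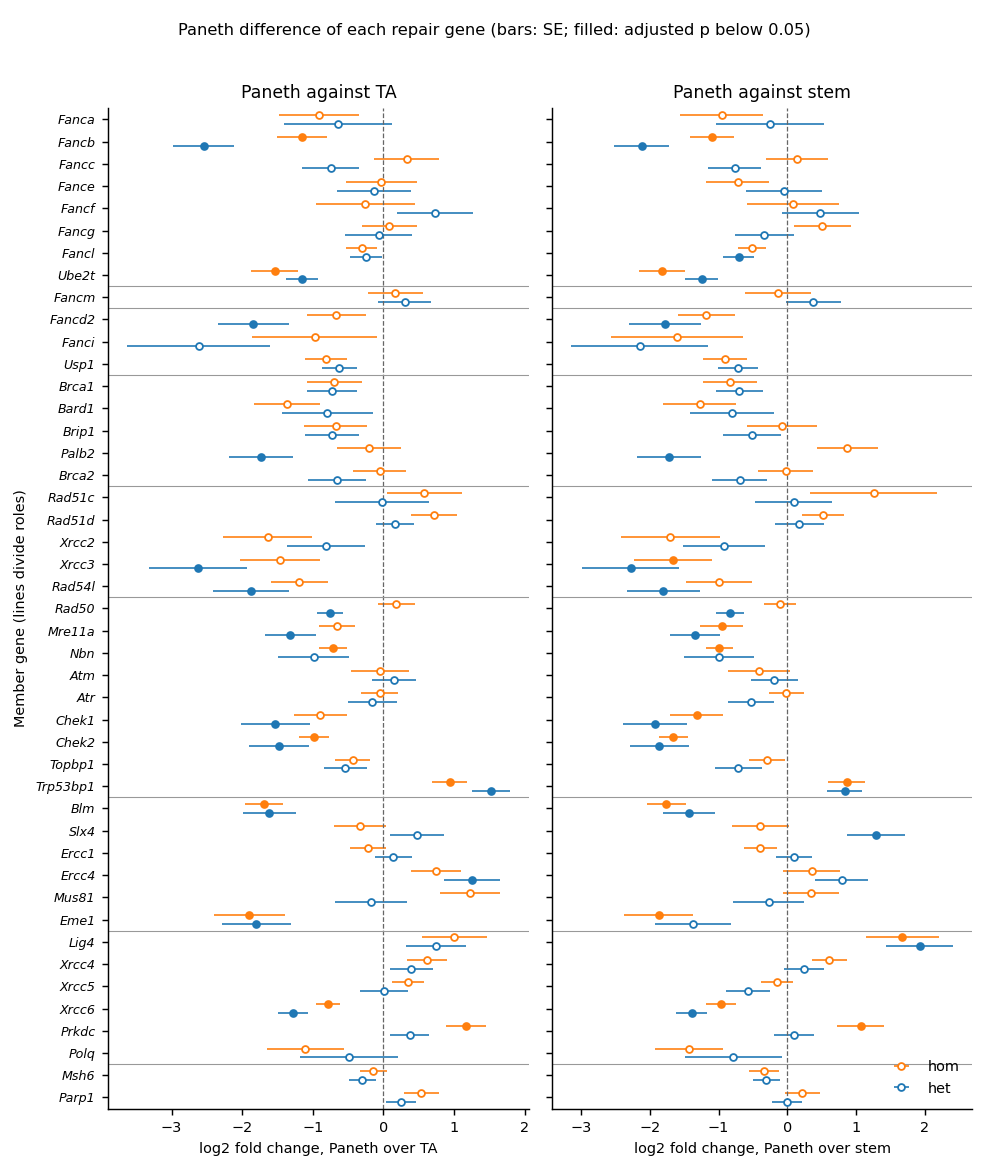
Log2 fold change of Paneth over TA cells (left) and Paneth over stem cells (right) for each member (rows, grouped by role) in hom (orange, upper point of a row) and het mice (blue, lower point); bars are the standard error and filled points were called at an adjusted p below 0.05. Most filled points lie left of 0, and those of Trp53bp1, Lig4, Prkdc, Ercc4 and Slx4 lie right of it.

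The scaling of the Paneth libraries set how many members, and how many of all genes, were called higher. With library totals in place of TMM the median of all genes shifted to between -0.58 and -0.41. The calls of members became 0 higher and 15 lower against TA cells in hom, 1 higher and 19 lower in het mice. Over all genes they became 1071 higher and 3778 lower in hom and 1513 and 3470 in het mice. With TMM these were 2635 and 1973 in hom and 2813 and 1908 in het mice. Against stem cells the calls of members became 0 higher and 18 lower in hom and 0 higher and 22 lower in het mice. Over all genes they became 1223 higher and 3616 lower in hom and 1497 and 3448 in het mice. With TMM these were 2819 and 2136 in hom and 2809 and 1791 in het mice. Relative to the median of all genes the members' median hardly moved, at -0.36 and -0.69 against TA cells in hom and het mice with library totals and -0.39 and -0.70 with TMM. Of the 53 calls of members in the 4 comparisons, 14 held in all 10 alternatives tried, and these belong to Xrcc6, Ube2t, Fancb, Trp53bp1, Blm, Chek2 and Nbn. Counts of calls also depended on single animals. Against TA cells they were 3 in hom mice without BO57 and 6 without BN45, and 6 in het mice without BN44 and 8 without BP03. Against stem cells they were 6 in hom mice without BO25, 6 without BO57 and 8 without BN45, and 6 in het mice without BN44 and 7 without BP03. Such fits hold fewer libraries for every gene. Calls over all genes in them, and the share of all calls that held, are not given here. These counts therefore do not set the members apart from other genes.

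Most genes of DNA replication and mitosis were called lower in Paneth cells as well. Of 25 S phase genes, 21 in hom and 23 in het mice were called lower in Paneth than in TA cells, and 21 in each genotype against stem cells. Of 20 genes of the G2 phase and mitosis, 20 in hom and 20 in het mice were called lower against TA cells, and 20 and 19 against stem cells. The summed S phase level ran from 536 to 1430 CPM in hom and 698 to 1094 CPM in het Paneth libraries, against 1881 to 2800 CPM in hom and 2206 to 3295 CPM in het TA libraries. Markers of other cells also differed between the fractions. The enteroendocrine and tuft sums given above stood at most at 501 and 10.1 CPM in TA libraries, and the goblet sum lay above that of stem cells in every Paneth library. 7 immune markers summed to 98.3 to 234 CPM in hom and 86.3 to 191 CPM in het Paneth libraries, against at most 8.21 CPM elsewhere. In each Paneth library only 2 or 3 of the 7 were above 1 CPM and 1 to 3 were at 0, so a few genes carried the sum. The part of the cell cycle genes and of these markers in the members' differences was not tested.

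The share of all genes called in none of the 4 Paneth comparisons is not given here, so the count of such members does not set them apart. 25 of the 45 members were called in none of the 4. They include Brca1 at 10.6 ± 5.86 CPM in hom and 9.59 ± 3.69 CPM in het Paneth libraries, against 17.3 ± 3.71 and 16.1 ± 4.89 CPM in TA libraries. Brca2 had 12.4 ± 6.40 CPM in hom and 10.2 ± 5.12 CPM in het Paneth libraries, against 13.0 ± 3.65 and 16.3 ± 5.43 CPM in TA libraries. Atm stood at 13.1 ± 8.08 CPM in hom and 15.4 ± 5.35 CPM in het Paneth libraries, Atr at 19.4 ± 3.86 and 21.0 ± 10.1 CPM, and Fancg at 5.86 ± 2.55 and 5.95 ± 3.27 CPM. The sensor Parp1, which detects single-strand breaks, stood at 59.1 ± 22.7 CPM in hom and 52.9 ± 14.5 CPM in het Paneth libraries, and Msh6 at 49.8 ± 13.1 and 41.4 ± 7.23 CPM (SD, n = 4 each). In TA libraries these genes stood at 41.1 ± 6.21 and 45.1 ± 5.18 CPM for Parp1 and 55.7 ± 5.97 and 51.5 ± 6.78 CPM for Msh6 in hom and het mice. Fancm, the fork translocase gene, stood between 8.96 and 12.4 CPM in the means of all 6 groups.

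Among 110 other repair genes edgeR called 0 between hom and het in each fraction. At an unadjusted p below 0.05 there were 15 of 110 in stem cells, against 6.73% of all genes. There were 8 of the 109 tested in TA cells, against 5.92%, and 1 of 110 in Paneth cells, against 2.28%. The gene of lowest p in stem cells was Mcm8, a helicase gene of recombination, at 8.63 ± 2.30 CPM in hom and 18.0 ± 3.78 CPM in het stem libraries. In Paneth libraries it was Ercc8, of repair coupled to transcription, at 7.77 ± 0.904 CPM in hom and 14.8 ± 3.59 CPM in het (SD, n = 4 each). Between stem and TA cells the recombination gene Rad51b was called higher in stem cells of both genotypes, at 23.0 ± 3.94 CPM in stem libraries and 10.5 ± 2.03 CPM in TA libraries of hom mice and 20.1 ± 6.83 and 7.92 ± 1.73 CPM in those of het mice. Pms1 in hom and Rad52 in het mice were the only other calls of that kind by edgeR. In het mice the calls are 2 of 110 (1.82%), against 6.26% of all genes, and in hom mice 4.61% of all genes were called.

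In Paneth against TA cells 18 of the 110 were called in hom, 6 higher and 12 lower, and 28 in het mice, 6 higher and 22 lower. These are 16.4% and 25.5%, against the 28.5% and 29.2% of all genes given above. Against stem cells 26 were called in hom, 4 higher and 22 lower, and 29 in het mice, 5 higher and 24 lower, which are 23.6% and 26.4%, against 30.5% and 28.3% of all genes. The lower calls held Rad51ap1, an accessory factor of recombination, at 5.81 ± 1.85 CPM in Paneth and 31.7 ± 11.0 CPM in TA libraries of het mice, and Fen1, the flap nuclease of replication, at 0.353 ± 0.0879 and 4.23 ± 1.51 CPM in the same libraries. The uracil glycosylase gene Smug1 was called higher in hom Paneth cells, at 39.0 ± 3.38 CPM in Paneth and 13.2 ± 3.73 CPM in TA libraries, as was Rev3l, the catalytic subunit of a translesion polymerase, at 63.8 ± 17.5 and 23.99 ± 2.85 CPM (SD, n = 4 each).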

How the data were processed

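RNA of 24 sorted fractions of 8 mice was measured. The authors deposited whole-number counts per gene, made with featureCounts 2.0.1 on Ensembl 98 gene models (mm10), read pairs counted as fragments without regard to strand at a mapping quality of at least 1, per the file headers. bcl2fastq 2.20.0 is named in the submitters' processing notes, and no version is given for the aligner. Antisense genes that share exons therefore cannot be told apart, and copies made in the 17 PCR cycles were counted as molecules. Among called members, antisense exons also cover 13.7% of the exon bases of Fancl (Vrk2) and 7.69% of those of Xrcc6 (Desi1). Depth was 24726282 to 47052856 counts per library. The spike-in sequences stayed out of the tests, while 267 IDs without a symbol (at most 0.0042% of counts) entered them where they passed the filter.

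Each comparison was fitted on its own 8 libraries with edgeR 4.0.16 (R 4.3.3): filterByExpr, TMM scaling and the quasi-likelihood F test, 2-sided, with Benjamini-Hochberg adjustment over all genes tested and a threshold of 0.05. Differences between genotype effects came from 1 fit of all 24 libraries. Standard errors are the log2 fold change over the square root of F. The scripts were tested on simulated data. Alternatives were DESeq2 1.42.0, its size factors, library totals, no filter, a mean of at least 5 CPM and the replicate block. Between genotypes, each library was also left out in turn and all libraries were fitted together. In the other comparisons each animal was left out in turn, with all its libraries in the comparison. Levels and overlap use TMM scaling over all 24 libraries. Promoters are RefSeq's (GRCm38.p6); 38 of 45 members matched by symbol.

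Fractions of 1 animal are paired by the labels: deviations from the group means of the same animal correlated by 0.083 to 0.247 between stem and TA, 0.021 to 0.133 between Paneth and TA and -0.018 to 0.144 between Paneth and stem libraries. The members and lists were chosen with earlier results of these data known. Fold changes and tests are given for the 10 members of smallest unadjusted p in a comparison (3 for differences between genotype effects) and for Dctn5. Other members, and 9 members followed throughout for their roles or because earlier results named them (Palb2, Fancg, Fanci, Prkdc, Brca1, Brca2, Fancd2, Atm and Trp53bp1), are otherwise given by level. Other repair genes are named by smallest p, at most 8 a comparison where called and 3 where none was. Some genes that this rule names are not reported here.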

Additional observations from a re-analysis of the deposited data

Results flagged for a closer look

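In 17 of 270 sets of 4 libraries (45 members in 6 groups) 1 library stood far from the other 3, by Dixon's test of the gap over the range of the group; chance alone marks about 1 set in 20.

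Among hom libraries, the stem library of BP04 held 6.54 CPM of Palb2, against 2.58 to 3.23 CPM in the others. The Paneth library of BP04 held 79.7 CPM of Usp1, against 31.2 to 32.4 CPM. The Paneth library of BN45 held 29.9 CPM of Xrcc6, against 50.2 to 51.7 CPM, and that of BO25 held 12.4 CPM of Mus81, against 6.20 to 6.70 CPM. In hom TA libraries BP04 held 20.8 CPM of Atm, against 11.2 to 12.0 CPM, and 84.7 CPM of Xrcc6, against 78.2 to 78.4 CPM. BO57 held 9.77 CPM of Trp53bp1, against 14.6 to 15.2 CPM, and BO25 held 7.68 CPM of Xrcc4, against 17.4 to 18.8 CPM.

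Among het libraries, the Paneth library of BO27 stood apart for 3 members. It held 2.58 CPM of Fancc, against 8.19 to 8.63 CPM in the others, 7.63 CPM of Fancf, against 1.97 to 2.85 CPM, and 3.22 CPM of Nbn, against 23.0 to 26.1 CPM. The Paneth library of BO58 held 2.70 CPM of Fanci, against 0.134 to 0.140 CPM. In het stem libraries BN44 held 11.0 CPM of Brca2, against 18.4 to 19.5 CPM, and BP03 held 12.4 CPM of Xrcc2, against 5.49 to 6.29 CPM. In het TA libraries BO58 held 31.8 CPM of Mre11a, against 21.1 to 22.8 CPM, and 3.67 CPM of Fance, against 6.04 to 6.38 CPM. BO27 held 52.8 CPM of Parp1 there, against 42.2 to 42.9 CPM.

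Outside the gene measurements, the 92 spike-in sequences listed in the count table together received at most 6 counts in any 1 library. So few counts do not show whether spike-ins were added.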

How the results depend on the processing

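Of 1179 alternative log2 fold changes of named genes, 1097 kept their direction and side of the threshold, 66 lost the call, 16 gained one and 0 reversed. Members called moved by over 1.5 times as follows. DESeq2 gave 1 between hom and het stem cells (edgeR 0), 3 and 1 between stem and TA cells in het and hom mice (edgeR 0 in both), 15 in hom Paneth against TA cells (edgeR 9) and 1 for stem minus Paneth (edgeR 0). Library totals gave 15 in hom Paneth against TA cells and 1 in hom stem against TA cells, as did a mean of at least 5 CPM for the second. Over all genes, library totals gave 301 higher and 433 lower in hom stem against TA cells, where TMM gave 324 and 412. With the animal as a replicate block, stem against TA cells gave 1 member in het (Trp53bp1) and 1 in hom mice (Chek2), Paneth against TA 15 in het and 13 in hom, and Paneth against stem 12 in each. With each replicate left out in turn, calls ran from 6 to 12 in het and 3 to 11 in hom Paneth against TA cells, and from 6 to 11 in het and 6 to 12 in hom Paneth against stem cells. They stayed at 0 in each of the other 8 comparisons. Shares of all genes called with the block or with a replicate left out are not given here, so these counts do not set the members apart. The block ended 9 of the 53 Paneth calls: against stem cells those of Eme1 (adjusted p = 0.051), Trp53bp1 (0.060) and Mre11a (0.11) in hom and of Blm (0.051), Xrcc3 (0.051), Trp53bp1 (0.083), Fancl (0.061) and Slx4 (0.095) in het mice, and against TA cells that of Ercc4 (0.084) in het mice.

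Between genotypes the labels state no pairs. Animals with neighbouring tag numbers correlated by 0.040 to 0.222 in stem, 0.054 to 0.227 in TA and -0.001 to 0.209 in Paneth libraries, and a replicate block on them called 0 members. Depth limits the values of the lowest members, such as Fanci, which rests on 1 to 4 counts in 5 of 8 Paneth libraries. The cause of each change in call was not tested.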
